A study of Mus musculus with 20 samples.

Results

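The samples described here are the 4 in which cultured mouse dorsal root ganglion (DRG) neurons fired short bursts of action potentials for 2 hr and the 4 unstimulated samples that shared their microarray slide, 8 of the 20 samples of the series, chosen by their titles. Neurons were taken from NIH Swiss mouse embryos at embryonic day 13.5, grown with 100 ng/ml nerve growth factor and treated with fluorodeoxyuridine to hold back the growth of dividing cells other than neurons. Stimulated cultures received 18 action potentials every 1 min (the 18/1 pattern) from platinum electrodes, as biphasic pulses of 6 V and 0.2 ms, and unstimulated cultures carried the same electrodes without current. The labels name no other agent and no transgene for either group, and both were kept without nerve growth factor and serum overnight before stimulation. RNA of each condition came from pooled cultures, so the spread between samples need not be a spread between separate animals, and p-values measure only the spread between these samples. Each Agilent array, a glass slide field of short DNA probes, held 2 samples of the same condition, 1 labelled with Cy3 and 1 with Cy5. Arrays 1 and 2 held unstimulated replicates 1 to 4, and arrays 3 and 4 held the stimulated replicates 1 to 4. Odd replicate numbers were Cy3 and even ones Cy5 in both groups. Each group therefore had its own places on the slide, and place on the slide and group cannot be told apart.

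DRG neurons are the sensory neurons of the body, and firing lets calcium into them through voltage-gated channels. Calcium entry and the kinases downstream of it switch on immediate-early genes, which need no new protein for their transcription. Many of these encode transcription factors, such as the AP-1 (Fos and Jun), Egr and Nr4a families and Npas4. Others encode signals and brakes, such as the growth factor Bdnf, the regulators of G proteins and small GTPases, and the inhibitors of the MAP kinase and NF-kappaB pathways.

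Defining markers of sensory neurons, such as Scn10a, Isl1 and Prph, were measured in both groups. All 22 sensory neuron markers were well above background by the scanner's mark in all 8 samples, whereas 2 of 13 markers of spinal cord neurons and glia passed the filter on low signals, although 1 label field names spinal cord as the source of the cells. Summed linear signals of the sensory markers ranged from 469433 to 504501 in unstimulated and from 386794 to 513020 in stimulated samples. For the Schwann and satellite cell markers, of which 10 of 14 were measured, the sums ranged from 68824 to 77120 and from 68104 to 80513. All 10 fibroblast markers were measured, and their sums ranged from 83875 to 110950 and from 88919 to 124704. The 6 of 8 measured macrophage and endothelial markers summed to 2906 to 3443 and to 2834 to 3125. The ranges of the groups overlapped for each of these lists. As these are bulk samples, fewer cells of a type and less RNA per cell cannot be told apart.

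Between 26157 and 30120 of the 43020 spots per sample were well above background, and the median ratio of a spot's signal to its local background was 2.27 to 2.94. Stimulated replicates 2, 3 and 4 each correlated most closely with the unstimulated sample of the same number (r = 0.994, 0.997 and 0.993 across genes), and stimulated replicate 1 with stimulated replicate 4 (r = 0.990). Genes are not independent replicates, so these values are a description of the libraries. Of the 8 samples, stimulated replicate 3 moved the count of calls the most when left out, and calls without it are given beside those of the gene lists that it moved. This sample was picked for that effect and not for its quality. It had the most spots well above background (30120) and the highest median ratio (2.94) of the 8 samples. Leaving out stimulated replicate 2 instead gave the lowest count, 8 genes.

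After 2 hr of 18/1 stimulation, 26 of 17166 genes tested differed from unstimulated neurons at an adjusted p under 0.05 in limma, 23 higher (0.134% of genes tested) and 3 lower (0.0175%). The 10 largest of the 23 rises belonged to Npas4, Nr4a1, Fos, Rgs2, Nr4a2, Egr1, C2cd4b, Gem, Egr4 and Fosb, from 25.5-fold down to 2.76-fold. The falls were smaller, at 1.67-fold for Usp19, 1.56-fold for Rnf123 and 1.54-fold for Taf8. All fold changes are on the scale of log2 signal with 50 units added to each signal, which makes the change of dim genes look smaller. Of the 23 rises, 7 passed the filter on low signals only through the stimulated samples and so had to differ (Fos, Nr4a2, C2cd4b, Apold1, Depp1, LOC100047591 and Cxcl1). The 4 stimulated samples lay outside the range of the 4 unstimulated samples for all 26 genes. Over all genes, the stimulated samples lay above in 2.62% and below in 2.64%, and an unadjusted p under 0.05 was reached by 6.49% higher and 7.36% lower. The median log2 fold change of all genes was -0.0018. Where the scanner software's own processed signals were used, with nothing added, the log2 fold change came to 6.04 for Npas4, 5.14 for Fos, 4.13 for C2cd4b and 3.45 for Cxcl1.

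Samples with the same replicate number deviated together from their group means, and with the replicate number as a block (a paired comparison) 79 genes passed, 56 higher (0.326%) and 23 lower (0.134%). All 26 genes were among them. Leaving out stimulated replicate 3 raised the count to 1172, 426 higher (2.48%) and 746 lower (4.35%), again with all 26 genes among them. In 615 of the 1146 genes gained, the sample left out lay within the range of the unstimulated samples, which choosing genes by leaving it out favours.

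**Figure D1:**
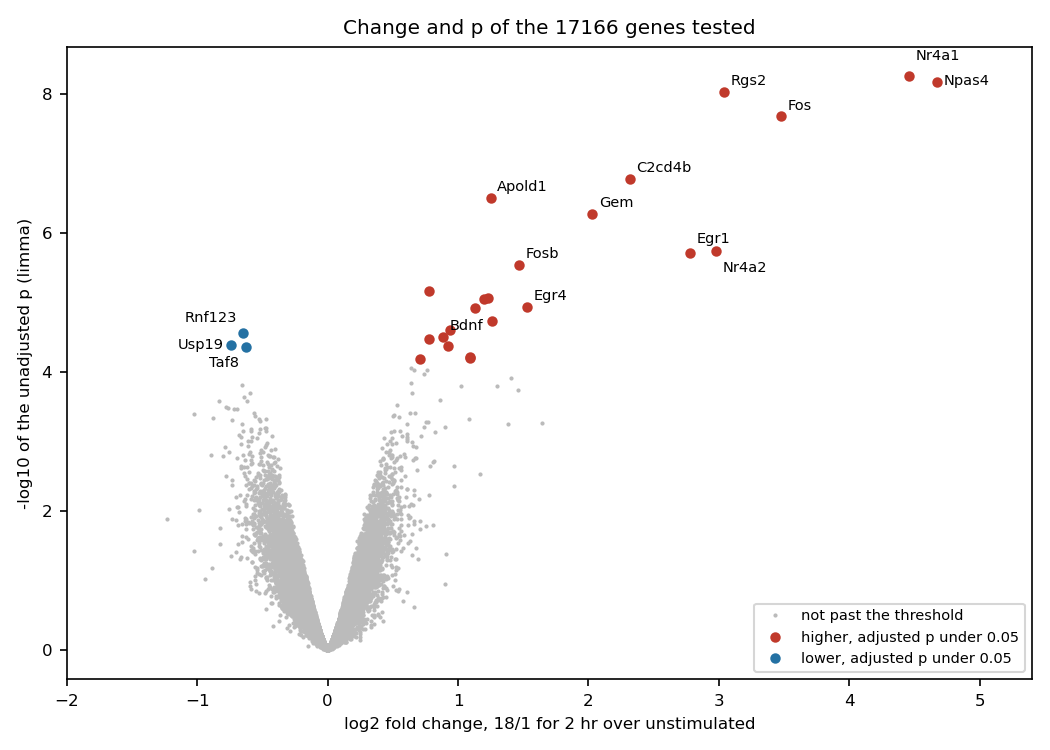
Log2 fold change of 18/1 for 2 hr over unstimulated (x axis) against the -log10 of the unadjusted limma p (y axis) for the 17166 genes tested. Red points are the 23 genes that rose and blue points the 3 that fell at an adjusted p under 0.05. The named points at the right, up to 4.67 for Npas4, are on the early-response lists, apart from C2cd4b and Apold1.

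Early transcription factors held 8 of the 23 rises, among them Fos and Nr4a2, which had to differ by the filter. Of a list of 34, 30 were tested, 8 rose and 0 fell at an adjusted p under 0.05 (against 0.134% and 0.0175% of all genes), and the median log2 fold change was 0.65. The counts were 14 and 1 without stimulated replicate 3, against 2.48% and 4.35% of all genes in that fit. Npas4 is a transcription factor of neurons that responds to calcium entry. Its log2 signals were 6.50, 7.10, 6.70 and 6.84 in the unstimulated and 10.84, 12.19, 11.67 and 11.13 in the stimulated replicates 1 to 4. Every stimulated sample was far above every unstimulated sample, with a log2 fold change of 4.67 (SE 0.24, limma adjusted p = 5.28e-05). Nr4a1 (Nur77), an orphan nuclear receptor, read 7.41, 7.89, 7.45 and 8.24 and then 11.78, 12.65, 12.55 and 11.85. Stimulated samples were high in both colours, and the log2 fold change was 4.46 (SE 0.23, limma adjusted p = 5.28e-05). Nr4a2 (Nurr1), a receptor of the same family, was near background at 6.49, 6.60, 6.57 and 6.51 and reached 9.13, 9.66, 10.46 and 8.84, highest in stimulated replicate 3. Its log2 fold change was 2.98 (SE 0.29, limma adjusted p = 0.00369). As its probe passed the filter on low signals only through the stimulated samples, Nr4a2 had to differ. A second, dimmer probe of Nr4a2 gave 1.32.

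Fos encodes a subunit of AP-1, the dimeric factor formed by Fos and Jun proteins. Its log2 signals of 6.61, 6.70, 6.55 and 6.64 became 9.84, 10.47, 10.50 and 9.58 under stimulation. That is a log2 fold change of 3.47 (SE 0.21, limma adjusted p = 8.98e-05), with stimulated replicates 2 and 3 above 1 and 4. The probe of Fos passed the filter on low signals only through the stimulated samples, so Fos had to differ. Fosb went from 7.35, 7.67, 7.09 and 7.65 to 8.91, 9.09, 8.99 and 8.63, a log2 fold change of 1.47 (SE 0.15, limma adjusted p = 0.00495). Fosl2 (Fra-2) read 9.50, 9.03, 8.93 and 8.75 and 10.15, 10.40, 11.00 and 9.85, without overlap. With a log2 fold change of 1.30, Fosl2 did not pass among all genes (limma adjusted p = 0.0771), but did with the replicate block (0.0297) and without stimulated replicate 3 (0.0258). The Jun subunits did not pass in the fit above. Jun itself was at 11.95, 12.66, 12.36 and 11.87 unstimulated and 10.68, 11.61, 12.03 and 11.21 stimulated, a log2 fold change of -0.83 (limma adjusted p = 0.292) with overlapping groups. Without stimulated replicate 3, Jun fell by 1.1 (limma adjusted p = 0.0326). Junb had a log2 fold change of 0.61, Jund of -0.28 and Fosl1 of 0.21, none past the threshold in that fit. Junb rose by 0.51 without stimulated replicate 3 (limma adjusted p = 0.0391), and it also passed with no background subtraction and with the scanner software's processed signals. Its probe passed the filter on low signals only through the stimulated samples, so Junb had to differ.

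Of the Egr zinc finger factors, Egr1 and Egr4 rose. Egr1 moved from 7.25, 7.98, 7.40 and 8.05 to 9.81, 11.14, 10.81 and 10.03, a log2 fold change of 2.78 (SE 0.27, limma adjusted p = 0.00369). Its 4 stimulated samples spread more widely than those of Fosb, and the lowest of them was still above the highest unstimulated sample. Egr4 read 7.18, 6.81, 6.45 and 6.48 and 8.60, 8.08, 8.61 and 7.76, a log2 fold change of 1.53 (SE 0.18, limma adjusted p = 0.0136). Egr2, which directs myelination in Schwann cells, had a log2 fold change of 0.43 (limma adjusted p = 0.311) with overlapping groups. Egr3 was not well above background in any of the 8 samples, and the same held for Nr4a3, the last member of the Nr4a family. Btg2, a cofactor that restrains cell division, rose from 10.45, 10.68, 10.08 and 10.57 to 11.50, 12.14, 11.33 and 11.61 (log2 fold change 1.20, SE 0.14, limma adjusted p = 0.0118). Members that did not pass among all genes but lay without overlap between groups were Junb, described above, Csrnp1 (0.90), Maff (0.77), Crem (0.68), Bhlhe40 (0.67) and Cebpb (0.49), given as log2 fold changes. With the replicate block, Csrnp1, Maff, Cebpd and Fosl2 passed as well, 12 of 30 in all (against 0.326% of all genes), and Crem passed without stimulated replicate 3. Atf3, a marker of injured sensory neurons, had a log2 fold change of -0.70 (limma adjusted p = 0.344), and Klf6 of -0.44 (limma adjusted p = 0.358), each with overlapping groups.

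**Figure D2:**
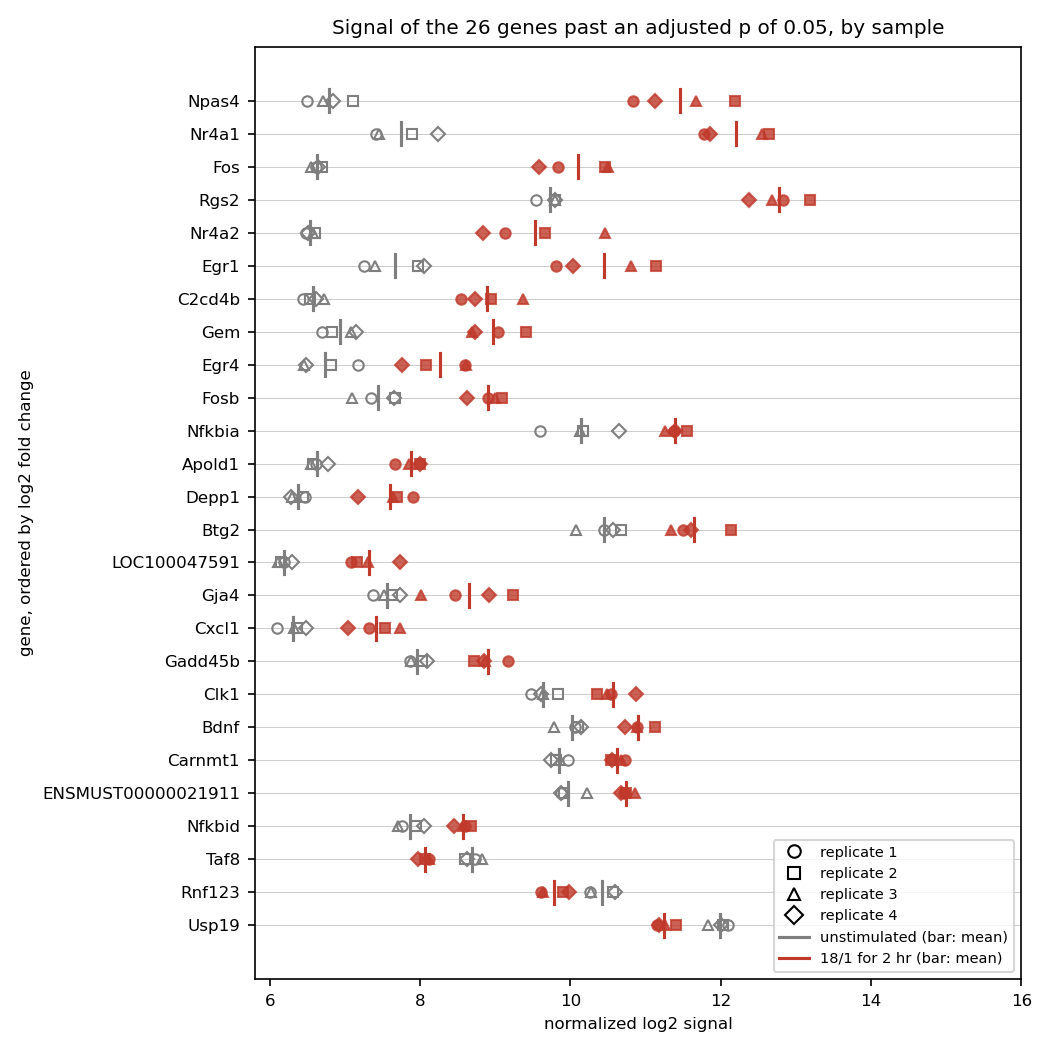
Normalized log2 signal (x axis) of each of the 26 genes past an adjusted p of 0.05 (rows) in the 4 unstimulated (grey, open) and 4 stimulated samples (red, filled), with bars at the group means and shapes for the replicate numbers. The groups do not overlap in any row, which their choice by a small p favours.

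Promoter sequence is shown for the genes with the largest rises, because they moved together. RefSeq windows of 300 bases, from 250 before to 50 after the annotated transcription start on GRCm38.p6, were found for 18 of the 23 genes that rose and for 3 of the 3 that fell. Egr1, Gem, Clk1, LOC100047591 and ENSMUST00000021911 had no window. The cyclic AMP response element (CRE), which binds CREB, has the sequence TGACGTCA, and its core is TGACG. In the lines below, capitals mark the core TGACG or its reverse complement CGTCA, so that a whole CRE stands in capitals throughout. Npas4 (chr19:4989922-4990221, minus strand), Nr4a1 (chr15:101266596-101266895, plus strand), Fos (chr12:85473640-85473939, plus strand), Rgs2 (chr1:144004100-144004399, minus strand) and Nr4a2 (chr2:57123954-57124253, minus strand) are the 5 largest rises with a single window, and each holds 2 to 4 cores.
Npas4: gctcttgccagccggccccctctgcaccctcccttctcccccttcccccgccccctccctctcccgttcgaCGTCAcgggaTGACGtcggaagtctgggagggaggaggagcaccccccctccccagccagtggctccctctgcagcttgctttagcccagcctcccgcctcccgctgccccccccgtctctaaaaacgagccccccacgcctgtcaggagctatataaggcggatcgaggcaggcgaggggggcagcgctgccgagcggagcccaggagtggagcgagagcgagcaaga
Nr4a1: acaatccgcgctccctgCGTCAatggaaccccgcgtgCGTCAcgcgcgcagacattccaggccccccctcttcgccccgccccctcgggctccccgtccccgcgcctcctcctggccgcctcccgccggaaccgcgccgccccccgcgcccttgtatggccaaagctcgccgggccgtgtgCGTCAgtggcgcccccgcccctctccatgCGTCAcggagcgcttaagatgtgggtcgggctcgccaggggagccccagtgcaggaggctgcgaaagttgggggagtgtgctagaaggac
Fos: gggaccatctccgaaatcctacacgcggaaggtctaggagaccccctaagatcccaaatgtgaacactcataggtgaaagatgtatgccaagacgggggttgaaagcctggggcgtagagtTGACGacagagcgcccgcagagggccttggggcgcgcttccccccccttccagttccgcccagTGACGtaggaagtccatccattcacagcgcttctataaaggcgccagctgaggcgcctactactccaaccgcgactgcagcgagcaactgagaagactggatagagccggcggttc
Rgs2: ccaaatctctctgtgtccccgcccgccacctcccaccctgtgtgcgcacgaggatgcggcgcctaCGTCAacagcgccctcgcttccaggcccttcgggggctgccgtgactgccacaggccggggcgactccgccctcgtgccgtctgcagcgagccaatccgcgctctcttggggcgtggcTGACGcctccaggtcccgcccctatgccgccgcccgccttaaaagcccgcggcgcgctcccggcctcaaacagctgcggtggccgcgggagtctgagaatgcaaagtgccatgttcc
Nr4a2: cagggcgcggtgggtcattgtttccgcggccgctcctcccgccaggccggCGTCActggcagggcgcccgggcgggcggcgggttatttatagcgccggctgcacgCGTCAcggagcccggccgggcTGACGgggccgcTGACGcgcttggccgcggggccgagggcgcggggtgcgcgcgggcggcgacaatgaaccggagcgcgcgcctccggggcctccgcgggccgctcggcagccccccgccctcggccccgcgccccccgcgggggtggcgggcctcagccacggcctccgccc
Btg2 (chr1:134079106-134079405, minus strand) and 1 of 3 windows of Nfkbid (chr7:30422156-30422455, plus strand) are shown because they hold the whole CRE.
Btg2: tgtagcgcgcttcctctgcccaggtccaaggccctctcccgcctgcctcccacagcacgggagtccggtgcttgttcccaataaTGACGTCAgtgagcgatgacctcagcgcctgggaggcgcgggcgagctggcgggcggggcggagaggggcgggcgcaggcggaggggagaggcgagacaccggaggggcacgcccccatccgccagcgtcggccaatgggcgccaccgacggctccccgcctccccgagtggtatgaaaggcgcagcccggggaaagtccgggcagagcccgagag
Nfkbid: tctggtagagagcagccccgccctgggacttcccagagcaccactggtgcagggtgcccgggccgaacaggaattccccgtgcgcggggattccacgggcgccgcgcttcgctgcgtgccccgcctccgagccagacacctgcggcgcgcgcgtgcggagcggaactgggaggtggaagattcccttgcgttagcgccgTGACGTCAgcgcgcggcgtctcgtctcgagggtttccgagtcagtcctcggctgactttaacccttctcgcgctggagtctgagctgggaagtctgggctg

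In the 26 windows of the genes that rose, counting both strands, the core was found in 15 (57.7%), against 29.4% of the 13774 windows of genes tested and 20.8% of all 32851 windows. The whole CRE, which overlaps the core by definition, was in 2 windows (7.69%, against 2.9% and 1.79%). A kappaB motif was in 8 windows (30.8%, against 7.07% and 5.8%), and the Egr motifs GCGTGGGCG or GCGGGGGCG were in 2 (7.69%, against 6.19% and 3.47%). The AP-1 motif TGAGTCA and the CArG box were in 0 of the 26, and in 3.83% and 1.34% of windows of genes tested. Of the 3 windows of genes that fell, 1 held the core. These shares describe letters in 1 window per start site and carry no test, and 7 of the 26 windows belong to Bdnf alone.

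Early effector genes, which act outside the nucleus, rose in 3 of 27 tested, with 0 lower and a median log2 fold change of 0.19. The count of rises was 6 without stimulated replicate 3 (2.48% of all genes) and 7 with the replicate block (0.326% of all genes), against 0.134% of all genes for the 3. Rgs2, which speeds the switching off of G proteins, read 9.55, 9.80, 9.79 and 9.79 at rest and reached 12.83, 13.19, 12.68 and 12.38. The unstimulated samples were closer together than the stimulated ones, and the log2 fold change was 3.04 (SE 0.17, limma adjusted p = 5.28e-05). A dimmer probe of Rgs2 gave 0.87. Gem, a small GTPase that lowers the activity of voltage-gated calcium channels, went from 6.69, 6.83, 7.09 and 7.15 to 9.03, 9.41, 8.69 and 8.74 (log2 fold change 2.03, SE 0.17, limma adjusted p = 0.00131), and its dimmer probe gave 1.12. Gem had the largest gap between the stimulated arrays of the 26 genes, at 2.28 on array 3 and 1.77 on array 4. Bdnf, a neurotrophin that sensory neurons make and release, read 10.07, 10.10, 9.78 and 10.14 and 10.89, 11.12, 10.88 and 10.72 (log2 fold change 0.88, SE 0.12, limma adjusted p = 0.0284). The rise was modest, and every stimulated sample exceeded every unstimulated sample.

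Other effector genes did not pass in the unpaired fit of all 8 samples but did in the paired comparison or without stimulated replicate 3. Areg, a ligand of the epidermal growth factor receptor, read 6.77, 7.12, 7.10 and 6.76 and 8.16, 8.86, 8.82 and 7.75 (log2 fold change 1.46, limma adjusted p = 0.0851, and 0.00228 with the replicate block). Trib1, a pseudokinase, had a log2 fold change of 1.38 (limma adjusted p = 0.142, and 0.0409 with the replicate block). Arc, an effector of synaptic plasticity, had 0.97 with overlapping groups (limma adjusted p = 0.225, and 0.0351 with the replicate block). Adcyap1, which encodes the neuropeptide PACAP, had 0.80 with overlapping groups (limma adjusted p = 0.291, and 0.0073 with the replicate block). Trpm6, an ion channel for magnesium, was higher by 0.39 without overlap (limma adjusted p = 0.288, and 0.039 without stimulated replicate 3). Other activity genes of the list did not pass, with log2 fold changes of -0.23 for Homer1, -0.07 for Plk2, 0.04 for Nptx2 and -0.28 for Vgf. Among the 5 of 32 members that missed the filter, Ptgs2 (cyclooxygenase 2) lay at 6.24 to 6.39 unstimulated and 6.67 to 7.67 stimulated, and Lif at 6.13 to 6.29 and 6.50 to 6.90. Each was well above background in 2 unstimulated and 4 stimulated samples, and neither was tested in the fit above.

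Of 29 feedback inhibitors tested, 2 rose and 0 fell, 22 had positive log2 fold changes, and the median was 0.31. With the replicate block 4 rose, and without stimulated replicate 3, 5, where the shares of all genes were 0.326% and 2.48% against 0.134% for the 2. Nfkbia encodes IkappaB alpha, which holds NF-kappaB in the cytoplasm. Its log2 signals of 9.60, 10.17, 10.13 and 10.65 became 11.38, 11.55, 11.26 and 11.39, a log2 fold change of 1.26 (SE 0.16, limma adjusted p = 0.0195), and the stimulated samples were closer together than the unstimulated ones. Gadd45b, a stress-inducible gene linked to DNA demethylation in neurons, read 7.87, 8.02, 7.88 and 8.09 and 9.17, 8.72, 8.86 and 8.85 (log2 fold change 0.94, SE 0.12, limma adjusted p = 0.0247). Its relative Gadd45a went the other way without passing, at -0.82 (limma adjusted p = 0.32), and Gadd45g read -0.04. Socs3, an inhibitor of cytokine signalling, read 7.73, 8.21, 8.35 and 9.01 and 9.62, 9.91, 9.90 and 9.52, without overlap. Its log2 fold change of 1.41 missed the threshold among all genes (limma adjusted p = 0.0659) and passed with the replicate block (0.0243). Dusp6, a phosphatase of the kinase ERK, had a log2 fold change of 1.17 (limma adjusted p = 0.241) that came to 1.63 on array 3 and 0.70 on array 4. It passed in 2 of the fits that left out a sample or an array (limma adjusted p down to 0.0074). Dusp1 was higher by 0.81 and Dusp4 by 0.50, both without overlap between the groups and neither past the threshold. Dusp4 passed without stimulated replicate 3 (limma adjusted p = 0.0336), and also without array 4 and with an offset of 10. As its probe passed the filter on low signals only through the stimulated samples, Dusp4 had to differ. The Egr corepressors Nab1 and Nab2 had log2 fold changes of 0.37 and 0.42, and the inhibitors of receptor kinase signalling Spry4 and Spred1 had 0.43 and -0.35. Zfp36 and Dusp5 were not well above background in any of the 8 samples.

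Of 12 NF-kappaB pathway genes tested, 1 passed as higher, Nfkbia (against 0.134% of all genes), with a median of 0.17 for the list. The subunit Rela had -0.32 (limma adjusted p = 0.376), the inhibitor Nfkbie 0.39 (limma adjusted p = 0.291) and Tnfaip3 (A20) 0.20. Outside the list, Nfkbid, a nuclear inhibitor of the same family, rose from 7.75, 7.95, 7.71 and 8.05 to 8.60, 8.68, 8.57 and 8.45 (log2 fold change 0.71, SE 0.11, limma adjusted p = 0.0424). Cxcl1, a chemokine that draws neutrophils, rose from 6.10, 6.37, 6.32 and 6.48 to 7.32, 7.54, 7.74 and 7.05 (log2 fold change 1.09, limma adjusted p = 0.0424). As its probe passed the filter on low signals only through the stimulated samples, Cxcl1 had to differ.

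**Figure D3:**
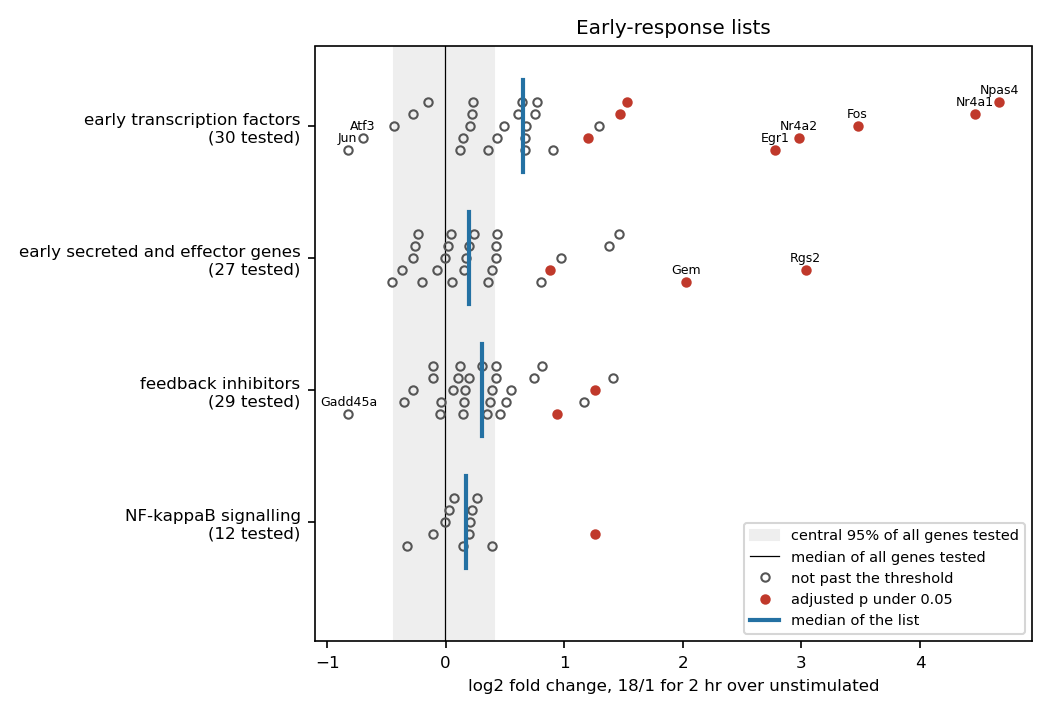
Log2 fold change (x axis) of the tested members of the early-response and NF-kappaB lists (rows), with filled red points for members past an adjusted p of 0.05, a blue bar at each list's median, a line at the median of all genes and a grey band for the central 95% of all genes tested. The early transcription factors have 8 filled points and a median of 0.65. The band shows the spread of single genes, not of medians.

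Further genes that rose were on none of the lists. Of these, C2cd4b, Apold1, Depp1 and LOC100047591 passed the filter on low signals only through the stimulated samples and so had to differ. C2cd4b, named for its C2 domain, was near background at 6.44, 6.54, 6.72 and 6.61 and reached 8.54, 8.94, 9.37 and 8.73, a log2 fold change of 2.32 (SE 0.17, limma adjusted p = 0.000569), and its other probe gave 2.08. Apold1 rose from 6.61, 6.57, 6.54 and 6.78 to 7.67, 8.0, 7.85 and 8.0, a log2 fold change of 1.25 (limma adjusted p = 0.000881). Depp1, a target of FOXO factors, lay at 6.29 to 6.46 unstimulated and 7.17 to 7.90 stimulated, a log2 fold change of 1.23 (limma adjusted p = 0.0118). Gja4, the gap junction protein connexin 37, rose by 1.09 (limma adjusted p = 0.0424), with unstimulated samples at 7.37 to 7.73 and stimulated samples at 8.01 to 9.23. These ranges did not overlap, and stimulated replicate 3 was the lowest of its group. Clk1, a kinase of splicing factors, rose by 0.92 (limma adjusted p = 0.0318). Carnmt1, which methylates carnosine, rose by 0.78 (SE 0.09, limma adjusted p = 0.0106), and its samples lay at 9.75 to 9.97 and 10.54 to 10.73. Another 2 of the 26 are known here by identifiers alone. LOC100047591 (probe at chr7:25396229-25396288, mm9) was not well above background in the unstimulated samples and was at least 2.19-fold higher under stimulation (limma adjusted p = 0.0136). The transcript ENSMUST00000021911 (chr13:63403319-63403378, mm9) rose by 0.78 (limma adjusted p = 0.0288). Cypt9 had a symbol that RefSeq did not match and is named here after its values were seen. It was not well above background in the unstimulated samples (mean 6.16, SD 0.07) and read 7.80 (SD 0.78) in the stimulated ones. Cypt9 did not pass (limma adjusted p = 0.142, and 0.0402 with the replicate block). Its probe met the filter on low signals through the stimulated samples alone, so it had to differ.

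On the mm9 build, the probes of the 5 largest rises lay at chr19:4984356-4984415 for Npas4, chr15:101105071-101105130 for Nr4a1, chr12:86817900-86817959 for Fos, chr1:145848830-145848889 for Rgs2 and chr2:56960699-56960758 for Nr4a2. The array's annotation assigns each probe to its gene.

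The 3 genes that fell were Usp19, Rnf123 and Taf8. Usp19, a deubiquitinating enzyme, read 12.10, 12.03, 11.83 and 12.01 unstimulated and 11.15, 11.40, 11.26 and 11.18 stimulated (log2 fold change -0.74, SE 0.10, limma adjusted p = 0.0318), and a dimmer probe gave -0.24. Rnf123, a ubiquitin ligase, read 10.27, 10.57, 10.27 and 10.59 and 9.61, 9.90, 9.64 and 9.98 (log2 fold change -0.64, SE 0.09, limma adjusted p = 0.0256). Taf8, a subunit of the general transcription factor TFIID, read 8.73, 8.60, 8.82 and 8.63 and 8.12, 8.07, 8.12 and 7.97 (log2 fold change -0.62, SE 0.09, limma adjusted p = 0.0318). The groups were separate in each of them. All 3 lost the call when unstimulated replicate 1, 2 or 4 or stimulated replicate 1, 2 or 4 was left out (limma adjusted p up to 0.235 for Rnf123). With signals centred on medians alone, 12 genes rose and 0 fell.

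Larger mean falls had wider spreads and did not pass among all genes. Pfkfb3, which makes the main activator of glycolysis, read 13.29, 12.55, 12.27 and 12.32 and 11.81, 11.36, 11.71 and 11.47, without overlap (log2 fold change -1.02, limma adjusted p = 0.134, and 0.0243 with the replicate block). Eif4g1, the scaffold of translation initiation, read 14.77, 14.83, 14.74 and 14.58 and 12.81, 13.86, 14.56 and 13.74 (log2 fold change -0.99, limma adjusted p = 0.283). In this gene stimulated replicate 3 lay just below the unstimulated samples, and without it the log2 fold change was -1.32 (limma adjusted p = 0.0224). Itga3, an integrin subunit, behaved likewise, at 9.80, 9.94, 9.71 and 9.89 and 8.69, 8.97, 9.67 and 9.07 (log2 fold change -0.74, limma adjusted p = 0.245, and 0.00797 without stimulated replicate 3). For Nisch and Caskin1, the log2 fold changes of -0.80 and -0.69 became -0.98 and -0.87 without that sample (limma adjusted p = 0.0209 and 0.0129). Trim59 had the largest mean fall, -1.23, but its unstimulated samples of 9.10, 8.90, 7.39 and 7.22 differed by array, and its stimulated samples were 6.89, 6.61, 7.21 and 6.98 (limma adjusted p = 0.291). The other genes among the 15 largest falls without overlap were Stat2 (-0.89), Ap2b1 (-0.88), Nhlrc1 (-0.83), Ube4a (-0.78), Mrgpre (-0.76), Tm9sf2 (-0.73), Arrdc2 (-0.72) and Camta2 (-0.69), as log2 fold changes. None of these 8 passed in the unpaired fit of all samples, whereas all 8 did without stimulated replicate 3, and 6 of them (not Stat2 and Ap2b1) did with the replicate block. Of all genes, 4.35% passed as lower without stimulated replicate 3 and 0.134% with the replicate block. The 8 were picked on these same samples as large falls without overlap, which favours their passing.

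The 26 genes changed in the same direction on both stimulated arrays, with a gap of at most 0.51 between the arrays. Against the mean of the unstimulated samples, Npas4 was higher by 4.72 on array 3 and 4.62 on array 4, Nr4a1 by 4.47 and 4.46, and Fos by 3.53 and 3.42. Rgs2 was higher by 3.28 and 2.80, Nr4a2 by 2.85 and 3.11, Egr1 by 2.81 and 2.75, and C2cd4b by 2.16 and 2.47. Within Cy3 and within Cy5, the difference was 4.65 and 4.69 for Npas4 and 1.73 and 1.20 for Fosb. On array 3 and array 4, Usp19 differed by -0.72 and -0.77, Pfkfb3 by -1.03 and -1.02, and Eif4g1 by -1.39 and -0.58.

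Each of the 8 samples and each of the 4 arrays was then left out in turn. Scaling, filter and choice of probe still used all 8 samples in each of these fits. Npas4, Nr4a1, Fos, Rgs2, C2cd4b, Gem and Apold1 passed every time, with a limma adjusted p of at most 0.00276 for Npas4 and 0.0284 for Gem. Nr4a2, Egr1 and Fosb lost the call only without stimulated replicate 2 (limma adjusted p = 0.0805, 0.0582 and 0.0908), and Egr4 lost it there and without array 3. Depp1 and Btg2 lost it without stimulated replicate 2 and also when array 1 or array 2 was left out. The other 10 rises, from Nfkbia to Nfkbid, and the 3 falls also lost the call without stimulated replicate 2, and each of them did so without at least 1 other sample as well. None of the 26 changed direction in these fits. Fos, Nr4a2, C2cd4b, Apold1, Depp1, LOC100047591 and Cxcl1 had to differ, as they passed the filter on low signals only through the stimulated samples. For these genes, calls with a sample or array left out are a description and no support for a rise.

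**Figure D4:**
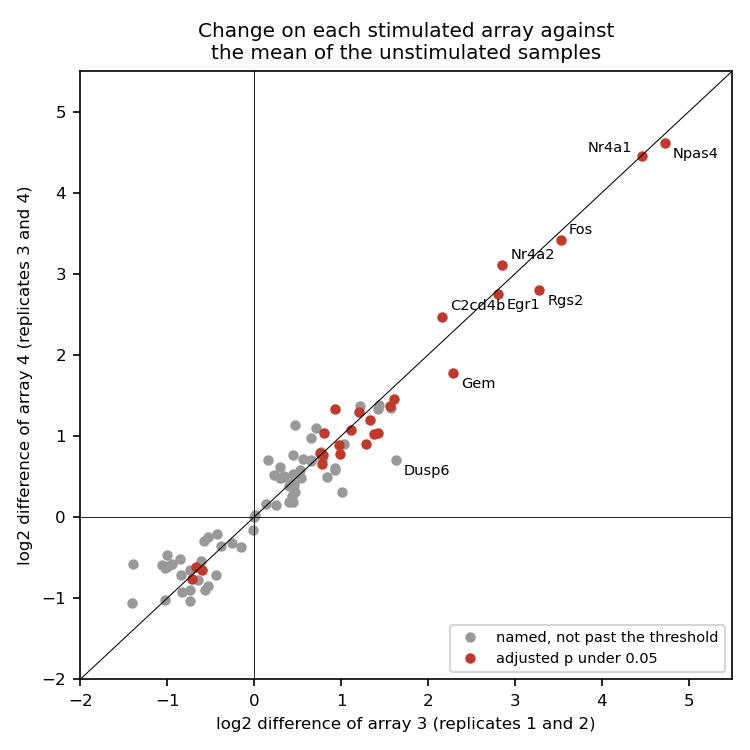
Log2 difference from the mean of the unstimulated samples on array 3 (x axis) and array 4 (y axis) for the 91 named genes, with red points for the 26 past an adjusted p of 0.05. Npas4, Nr4a1, Fos and Egr1 lie close to the line of equal change, while Rgs2, Gem (2.28 and 1.77) and Dusp6 (1.63 and 0.70) lie below it.

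Ranked by the median log2 fold change of their tested members, 36 gene families ran from 1.53 to -0.32. The Egr family stood first with 3 of 3 higher, followed by Fos and Jun at 0.61 with 5 of 7 higher. The Kir-Gem-Rad-Rem GTPases, which restrain calcium channels, came next at 0.43 with 3 of 3 higher, and the dual-specificity phosphatases at 0.22 with 10 of 18 higher. The medians of Fos and Jun, of these GTPases and of the collagens are the values of Junb, Rem2 and Col4a4. Each of these genes passed the filter on low signals only through the stimulated samples and so had to differ. The 27 collagens (median 0.18, 23 higher) and the 75 mitochondrial ribosomal proteins (median 0.15, 63 higher) had 0 members past the threshold. Without stimulated replicate 3, 0 of the collagens and 8 of the mitochondrial ribosomal proteins passed as higher, against 2.48% of all genes. At the other end stood the GPCR kinases and arrestins (median -0.32, 6 of 6 lower), semaphorins and plexins (-0.25, 18 of 23 lower) and the alpha subunits of voltage-gated calcium channels (-0.22, 5 of 5 lower), again with 0 members past the threshold. Without stimulated replicate 3, 3 of 6, 3 of 23 and 2 of 5 of these passed as lower, against 4.35% of all genes. Their medians were then -0.38, -0.38 and -0.39. Over all genes tested, 8463 were higher and 8703 lower. Within a family the members could part, as in the RGS proteins, where Rgs2 stood at 3.04 and the family's median at 0.10, or the SOCS proteins, where Socs3 stood at 1.41 and the median at -0.0015. All families named here kept the sign of their median under the 4 other scalings tried. With the scanner software's processed signals the median came to 2.75 for Egr, 1.38 for Fos and Jun, 1.06 for the Kir-Gem-Rad-Rem GTPases and -0.43 for the calcium channels. In that scaling it was 0.12 for the dual-specificity phosphatases and -0.13 for the SOCS proteins.

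The channels and kinases that lie between firing and transcription had mostly negative log2 fold changes. So did the sensory neuron markers (17 of 22, or 13 with median centring, some of them on both lists, such as Scn10a). All 10 fibroblast markers had positive ones, or 9 with processed signals and 8 without stimulated replicate 3. The part of these markers in the result was not tested. Of 31 ion channels of sensory neurons tested, 26 were lower, with 0 past the threshold and a median log2 fold change of -0.22. Scn10a, the sodium channel Nav1.8 of nociceptors, read 15.42, 15.37, 14.61 and 14.62 and 14.41, 14.73, 14.78 and 13.81 (log2 fold change -0.58, limma adjusted p = 0.368), and Scn1a was the highest of the list at 0.29. Without stimulated replicate 3, 4 of the 31 passed as lower, among them the calcium channels Cacna1a and Cacna1h, against 4.35% of all genes. Of 45 genes of calcium, MAP kinase and CREB signalling, 34 were lower, with 0 past the threshold and a median of -0.16. Without stimulated replicate 3, 40 were lower and the median was -0.26. Camk2g, a calcium and calmodulin dependent kinase, was the lowest at -0.58 (limma adjusted p = 0.206), with the groups at 15.26 to 15.84 and 14.89 to 15.13. It passed without stimulated replicate 3 (limma adjusted p = 0.045), together with Ep300, Prkacb and Mrtfa.

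Axon growth and injury genes had a median of -0.0023 over 17 tested (0.08 with median centring), with 0 past the threshold. Flrt3, a cell adhesion protein of growing axons, was the highest at 0.79 (limma adjusted p = 0.224, and 0.0339 without stimulated replicate 3), with groups at 10.39 to 10.64 and 10.86 to 11.62 and its 3 probes between 0.75 and 0.95. Jun was the lowest of the list at -0.83 and passed as lower without stimulated replicate 3 (-1.10, limma adjusted p = 0.0326). In that fit 1 of the 17 rose and 1 fell, against 2.48% and 4.35% of all genes. Gap43, a protein of growing axons, stood at -0.01. Of 22 stress and chaperone genes, 0 passed and the median was -0.04 (0.06 at most under another scaling). Hmox1 had the largest positive log2 fold change of them, 0.66, with overlapping groups at 12.99, 11.98, 11.27 and 9.57 and 13.13, 11.79, 12.11 and 11.41. Sensory neuron markers had a median of -0.09, with 17 of 22 lower and 0 past the threshold. That was -0.02 and 13 of 22 with median centring, and -0.15 and 18 of 22 without stimulated replicate 3. Fibroblast markers had a median of 0.15, with 10 of 10 higher (8 without stimulated replicate 3) and 0 past the threshold. For the sensory markers the extremes were Scn10a and Ntrk2 (0.31), and for the Schwann and satellite cell markers Mbp (-0.39) and Pmp22 (0.42). Mbp (1 of 10) and Ntrk3 (1 of 22) passed as lower without stimulated replicate 3, against 4.35% of all genes. The fibroblast markers ran from Thy1 (0.00069, a gene that neurons also express, saturated in 2 samples of each group) to Fn1 (0.39). The macrophage and endothelial markers ran from Kdr (-0.29) to Cd68 (0.15), and those of the spinal cord that passed the filter were Aqp4 (-0.09) and Slc32a1 (0.02).

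**Figure D5:**
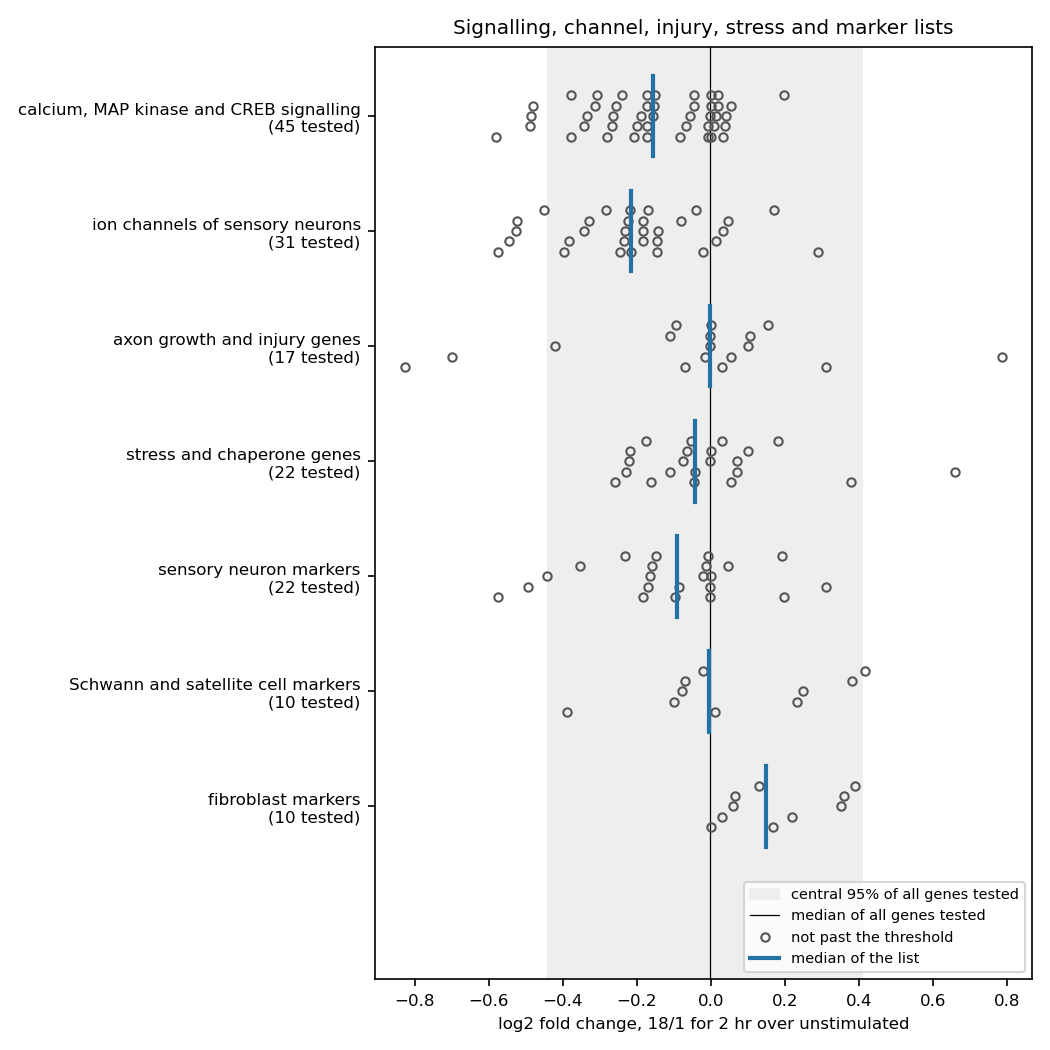
Log2 fold change (x axis) of the tested members of the signalling, channel, injury, stress and marker lists (rows), with a blue bar at each list's median, a line at the median of all genes and a grey band for the central 95% of all genes tested (-0.44 to 0.41). No member passed an adjusted p of 0.05, and the medians run from -0.22 for the ion channels to 0.15 for the fibroblast markers.

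Transcripts were also compared by a detection rule of the study's methods, at least 2 times background in all 4 samples of a group and in 0 samples of the other. By that rule 34 genes were turned on and 0 turned off. The rule is stricter than the scanner's mark, by which the tested probes of most of the 34 genes, Fos among them, were well above background in all 4 unstimulated samples. For some the change was close to 0, such as a log2 fold change of 0.05 for Olfr1260, an example chosen after its values were seen. For 27 of the 34, the probe that was turned on was also the probe tested, and 7 of these were among the 26 genes, the same 7 that passed the filter on low signals through the stimulated samples alone. Junb, Dusp4 and Rem2, a relative of Gem, were turned on without passing the threshold (log2 fold changes 0.61, 0.50 and 0.43). Of the 9 transcripts that the study lists as raised in every condition, all 9 were higher here without overlap, against 2.62% of all genes. In the unpaired fit 7 passed, Npas4, Nr4a1, Rgs2, Gem, Egr4, Gadd45b and Bdnf, against 0.134% of all genes. With the replicate block 8 passed (0.326% of all genes), and without stimulated replicate 3 all 9 did (2.48%). The study chose that list on these samples among others, so it is not independent evidence of a direction.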

How the data were processed

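Spot intensity and local background intensity were deposited by the authors as scanner output of two-colour Agilent 4x44K mouse arrays, extracted with Agilent Feature Extraction 10.7.1.1 on this slide and 10.7.3.1 on others per the file headers, and not normalized between arrays. The scanner's other marks for spots (well above background, saturated, non-uniform) were deposited as 0 or 1, and 35 further columns per colour were not used. Background was corrected by normexp with an offset of 50, colours by loess within arrays, and signals were scaled between arrays (Aquantile) in limma 3.58.1 (R 4.3.3), which compresses dim values. Control spots were dropped, spots of a probe averaged, and probes kept at 2 times background in at least 4 of 8 samples, whatever their group. The brightest probe stood for a gene, and of the 17166 genes tested 14056 had a symbol. Each gene's log2 signal was fitted by limma with group and colour as terms, array as a random block and Benjamini-Hochberg adjustment, with 5 residual degrees of freedom. The fit was also checked on simulated data, and no result here rests on that check. The number of arrays limits the precision.

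Named were all genes past the threshold, the 15 largest changes in each direction without overlap (among genes whose symbol matched RefSeq, with an unadjusted p under 0.05 and the higher group well above background), members of the early lists at an unadjusted p under 0.05, and the extremes of other lists. Further genes were named after their values were seen. Members and lists were chosen with earlier results of these data known. Same-numbered samples deviated together (r of 0.41, 0.71, 0.50 and 0.64 for numbers 1 to 4, each the highest for its number), so replicate numbers were taken as pairing the samples. The number is tied to colour and array order. Alternatives covered background, scaling, filter, colour, array, pairing, test and left-out samples, and the counts per list and family without stimulated replicate 3 or with the replicate block were added after seeing the data. Promoter windows came from RefSeq, 300 bases from 250 before to 50 after a start, and motifs were searched on both strands.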

Additional observations from a re-analysis of the deposited data

Results flagged for a closer look

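Among the named genes, 7 of 182 groups of 4 samples had 1 sample far from the others by Dixon's test, and chance gives about 1 in 20 groups. In Rgs2, unstimulated replicate 1 was low at 9.55, with the others between 9.79 and 9.80. Dusp1 was low in unstimulated replicate 3 at 11.08, with the others between 11.88 and 11.99. The transcript ENSMUST00000021911 was high in unstimulated replicate 3 at 10.22, with the others between 9.87 and 9.92. Rps6ka2 was high in unstimulated replicate 1 at 8.18, with the others between 7.90 and 7.95. Mbp was low in unstimulated replicate 3 at 11.57, with the others between 11.75 and 11.79, and Klf6 was high in that sample at 12.15, with the others between 11.50 and 11.58. Klf10 was low in stimulated replicate 4 at 10.28, with the others between 11.09 and 11.20. All are normalized log2 signals, and 4 of the 7 lay in unstimulated replicate 3.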

How the results depend on the processing

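The 26 genes kept their direction under all alternatives run, and Npas4 and Nr4a1 passed in each limma fit that tested them. The count of genes past the threshold depended on the processing. It was 40 with an offset of 10, 13 with quantile normalization, 12 with median centring, 12 with the filter in all 8 samples, 14 with the filter in all 20 samples, 5 with array means, 4 with all 20 samples in the fit, 4 in Cy3 alone and 3 in Cy5 alone, each against 26. In the settings with all 20 samples, the marks for non-uniform spots on 4 arrays of other conditions were not used. With the replicate block (paired) it was 79. A t-test of the methods' kind with their minimum fold of 1.4 gave 242 genes without adjustment, 25 of them among the 26, and 0 after Benjamini-Hochberg adjustment. It did not use the methods' fold cut-off per transcript or their correction over spots of the same transcript, so its count is not the study's. Leaving out each sample gave 8 to 1172 genes, the lowest without stimulated replicate 2 and the highest without stimulated replicate 3, and leaving out each array gave 12 (array 1) to 671 (array 4). The median of the early transcription factors was 0.55 with no filter, 0.54 to 0.68 when leaving out each sample and 0.58 to 0.70 when leaving out each array. Medians when leaving out a sample or array were 0.13 to 0.33 for early effector genes and 0.21 to 0.43 for feedback inhibitors. By the rule for transcripts turned on, 61 genes passed at 1.5 and 17 at 3 times background, with 1 turned off at 3 times. Signs turned only in genes past no threshold. Thy1 was -0.13 with processed signals and -0.0435 in Cy3 alone, and Slc32a1 was -0.0253 in Cy5 alone. When each sample or array was left out in turn, Thy1 ran from -0.0593 to 0.0521, Slc32a1 from -0.0492 to 0.0796, Aqp4 from -0.34 to 0.15, Fn1 from -0.0258 (without array 1) to 0.81 and Hmox1 from -0.37 (without array 2) to 1.69. Causes were not tested. Over all single genes and settings, 2241 values kept their side of the threshold, 250 lost it, 93 gained it and 17 turned sign. Dim genes near background limit what the fold changes can show.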
